A study of Mus musculus with 3 samples.

Results

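Krt81 and Krt83 are a pair of type II hair keratin genes, and in these cells of the mouse jaw their transcripts lay mostly in developing neutrophils. Transcripts of Krt83 were also present in the most mature neutrophils. The 2 genes, of 31253 in the count matrices, were chosen by their UMI counts in these same 3 libraries, where they had been among the leading genes of neutrophil precursor clusters, and were read here by symbol. Their levels along neutrophil maturation are therefore a description of the pattern they were picked for, and no test is attached to them. Of the 5716 UMIs (unique molecular identifiers, each standing for 1 captured transcript) of Krt81 in kept cells, 5554 (97.2%, exact binomial 95% interval 96.7% to 97.6%) were in granulocyte clusters. Of the 13325 UMIs of Krt83, 12658 were there (95.0%, interval 94.6% to 95.4%), while granulocytes made up 29.6% of the kept cells. Both shares are over the pooled libraries, and the values by library follow below. These shares restate the choice of the genes and lend no support to it. The name granulocytes rests on the markers of the clusters, given further on.

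Droplet-based single-cell RNA-seq of the jaw was run on wild-type male C57BL/6 mice aged 10 weeks. The Ctrl library came from mice that were not irradiated, and the 1d and 7d libraries from mice killed 1 or 7 days after a 10 Gy dose to head and neck. Cells of 8 mice were pooled into each library, so each group had 1 library, there is no replicate and no p-value, and all intervals cover counting error only. Cells were freed from minced tissue with collagenase II and stored frozen before capture. After filtering, 8623, 4879 and 6094 cells remained in Ctrl, 1d and 7d, with median depths of 2419, 5022 and 3816.5 UMIs per cell. Between 9 and 14 barcodes of kept cells were shared by any pair of libraries. The share of granulocytes differed between libraries, at 35.8% of kept cells in Ctrl, 37.5% in 1d and 14.4% in 7d. Depth per cell differed as well. Granulocytes held 92.8%, 97.4% and 86.1% of the Krt83 UMIs of Ctrl, 1d and 7d, and 97.0%, 97.0% and 99.3% of the Krt81 UMIs. Neutrophil precursors alone held 59.2%, 86.8% and 68.8% of the Krt83 UMIs and 89.7%, 95.6% and 94.5% of the Krt81 UMIs. They were 3.99%, 24.5% and 6.02% of the kept cells. The 1d library gave 7984 of the 13325 Krt83 UMIs. Cluster 17 came from the Ctrl library alone.

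Hair keratins are filament proteins of the hair shaft and nail. A type II hair keratin pairs with a type I hair keratin, and the filaments are then bound together by keratin-associated proteins in the cortex of the hair. Neutrophils mature in the bone marrow through stages named for the granules they are making: primary granules with myeloperoxidase and elastase in the progenitor, secondary granules with lactoferrin and cathelicidin in the precursor, and gelatinase granules in the last stages before release.

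The genes lie beside each other in the type II keratin cluster on chromosome 15 (mouse build mm10, the build of the files). Krt81 spans chr15:101459061-101463751 and Krt83 spans chr15:101485130-101491512, both on the minus strand with 9 exons, and Krt86 lies between them on the plus strand at chr15:101473478-101479986. Their coding sequences were the same at 1348 of 1438 aligned bases (93.7%), so counting could in principle mix the copies. The libraries were read from the 3′ end, and there the genes part: after the stop codon only 55.2% of aligned bases were the same. None of the 451 stretches of 50 bases in the last 500 bases of either transcript occurred in a transcript of another gene. The last 90 coding bases, in exon 9, show the change from alike to unlike within 1 stretch; capitals mark the 32 bases that differ between the genes, and the other 58 are the same (Krt81 chr15:101459404-101459493 and Krt83 chr15:101485384-101485473, minus strand, read 5′ to 3′).
Krt81: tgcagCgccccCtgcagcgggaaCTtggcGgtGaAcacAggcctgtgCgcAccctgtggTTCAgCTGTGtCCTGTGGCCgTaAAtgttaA
Krt83: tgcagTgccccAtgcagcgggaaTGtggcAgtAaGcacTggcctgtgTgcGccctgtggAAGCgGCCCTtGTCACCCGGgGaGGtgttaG

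Granulocytes formed 5 clusters when Krt81 and Krt83 themselves were kept out of the genes used for clustering, and each name below stands for cells that look like the type by its markers. Granulocyte progenitors (591 cells) were led by Elane and Mpo, the primary granule enzymes elastase and myeloperoxidase. Early neutrophil precursors (587 cells) were led by Camp, Ngp and Ltf, the secondary granule genes for cathelicidin, neutrophilic granule protein and lactoferrin, and 93.5% of them had UMIs of at least 2 of 6 cycling genes. Late neutrophil precursors (1317 cells) still had Ltf at 8727 counts per 1000000 UMIs but also Mmp8, the neutrophil collagenase, at 1057, against 40.4 in early precursors. By markers they stood between precursors and young neutrophils, with a mean log2 of 2.51 for the precursor list and 2.95 for the young neutrophil list against other cells. The most mature cells formed a Retnlg-rich cluster (1938 cells, Retnlg being a secreted resistin-like protein of neutrophils) and an Acod1-rich cluster (1358 cells, Acod1 making itaconate).

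Krt81 was nearly absent from progenitors, high in both precursor clusters and nearly gone again in neutrophils. In progenitors it stood at 6.26 counts per 1000000 UMIs of the cluster (CPM) in Ctrl, 5.08 in 1d and 1.88 in 7d. In early precursors it stood at 192 (95% interval 166 to 221), 229 (218 to 241) and 92.8 (80.8 to 106), and in late precursors at 263 (247 to 281), 427 (410 to 444) and 165 (142 to 191). The late precursor value was the highest of the 5 clusters in every library. In Retnlg-rich neutrophils Krt81 was at 16.5, 24.7 and 21.6, or 0.0627, 0.0580 and 0.131 times the late precursor level. The Acod1-rich neutrophils held 9, 2 and 0 UMIs of Krt81, the 0 in 7d allowing up to 25 CPM (3 counts being taken as the limit that a 0 allows).

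Krt83 was detected over a wider stretch of maturation and lasted into neutrophils. In progenitors it stood at 38.4 CPM in Ctrl, 22.8 in 1d and 12 in 7d, and in early precursors at 295 (263 to 330), 287 (274 to 301) and 114 (101 to 129). Late precursors again held the highest level in every library, with 613 (588 to 639), 907 (882 to 932) and 470 (430 to 512). In Retnlg-rich neutrophils it was still 259 (244 to 274), 651 (603 to 702) and 374 (305 to 453), which is 0.422, 0.718 and 0.796 times the late precursor level. The 7d value rests on 80 cells, 1 of which held 17.3% of the UMIs. In Acod1-rich neutrophils it was 89.3, 171 and 41.6, the last from 5 UMIs.

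**Figure D1:**
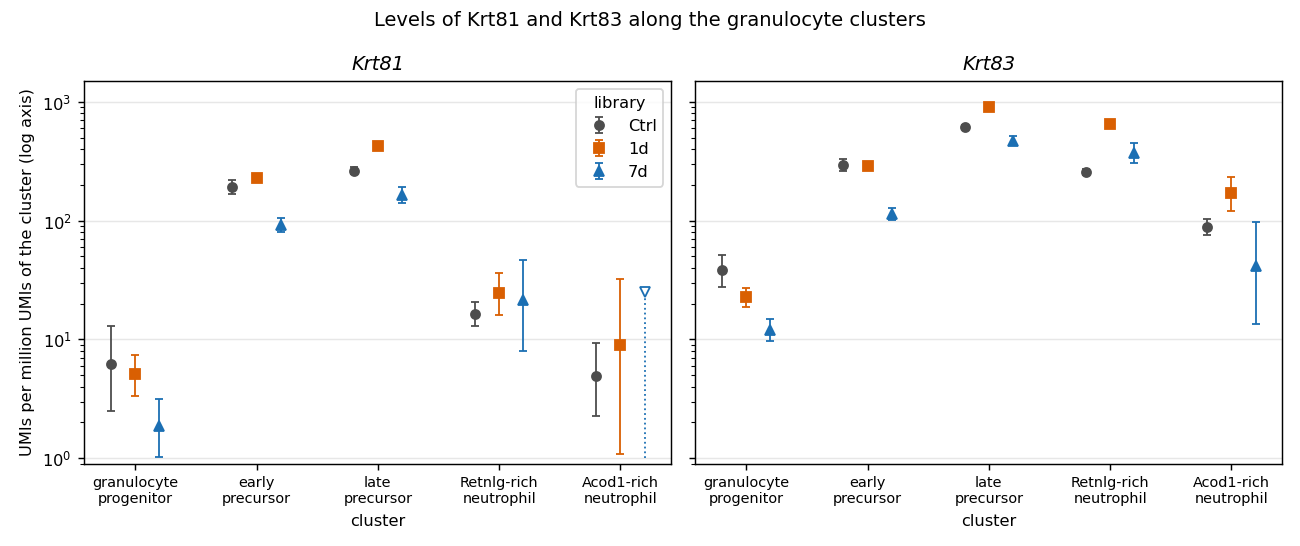
CPM of Krt81 (left) and Krt83 (right) in the 5 granulocyte clusters of each library on a log axis, with exact Poisson 95% intervals and, for the cluster with no UMI, an open triangle at the limit of 3 counts. Both genes peak in late precursors in all 3 libraries, and in Retnlg-rich neutrophils Krt81 is at 16.5 to 24.7 and Krt83 at 259 to 651.

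Both genes peaked in late precursors, but Krt83 exceeded Krt81 by different factors along the stages. The ratio of Krt83 to Krt81 UMIs was 1.28 in early precursors (interval 1.20 to 1.36), 2.22 in late precursors (2.13 to 2.31) and 18.3 in Retnlg-rich neutrophils (15.1 to 22.4). In Ctrl, 1d and 7d taken singly it was 1.54, 1.25 and 1.23 in early precursors, 2.33, 2.13 and 2.84 in late precursors, and 15.7, 26.3 and 17.3 in Retnlg-rich neutrophils. Progenitors, where both genes were scarce, had a ratio of 5.27 from 253 and 48 UMIs. These are ratios of UMIs from 3′ counting, not scaled for the similar transcript lengths of 1843 bases (Krt81) and 1757 bases (Krt83).

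Both precursor clusters together held Krt81 at 18.6 times its level in neutrophils in Ctrl, 14.7 times in 1d and 7.72 times in 7d. These ratios ranged from 4.28 to 32.8 in Ctrl, 4.85 to 30.4 in 1d and 4.60 to 27.4 in 7d under the other settings, lowest with the stricter cell filter in Ctrl and 1d. For Krt83 the ratios were 2.56, 1.02 and 0.839. The 7d value changed direction with the settings. It was 2.20 with cells gated on summed granule markers in place of clusters and 2.43 with every cell thinned to 1000 UMIs. Past 2-fold higher in precursors were both genes in Ctrl, against 36.4% of the 8547 genes with at least 20 UMIs, and Krt81 alone in 1d (43.7% of 9085 genes) and 7d (43.5% of 7247). The genes were picked for this contrast, and nothing is read from these counts.

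A maturation score, the log2 of mature neutrophil marker counts over secondary granule marker counts, put precursors and neutrophils into 10 bins of 520 cells. Krt81 was at 229 CPM in the first bin, highest in the second at 319 (304 to 334), at 290 in the third and 174 in the fourth, and then at 24.8 in the fifth. In the last bin it had no UMI, which allows up to 4.28 CPM. Ltf was also highest in the second bin of the pooled libraries. The secondary granule markers of the score include Ltf, Camp and Ngp, so their early peaks follow from how the bins were made. Krt83 was at 279 in the first bin and 552 in the second, highest in the fourth at 719 (690 to 749), at 430 in the fifth and still at 74.2 (55.4 to 97.3) in the last. Its highest bin was that of Mmp8, and Retnlg was highest in the fifth bin, neither gene being part of the score. Camp and Ngp were highest in the first bin.

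The order of the peaks varied between libraries. In Ctrl both keratins were highest in the third bin, Krt81 at 249 and Krt83 at 635, with Krt83 at 634 in the fourth, so the peaks there could not be told apart. In 1d Krt81 was highest in the second bin at 394 and Krt83 in the fourth at 909. In 7d Krt81 was highest in the third bin at 155 and Krt83 in the fourth at 479. Ltf was highest in the first bin in Ctrl and 7d and in the second in 1d, so Krt81 and Ltf peaked in the same bin in 1d alone. Mmp8 shared the fourth bin with Krt83 in 1d and 7d but was highest in the fifth in Ctrl. In every library Krt81 was lower than Krt83 in the fourth and the fifth bins. In 7d only the first 5 bins held 30 cells or more.

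**Figure D2:**
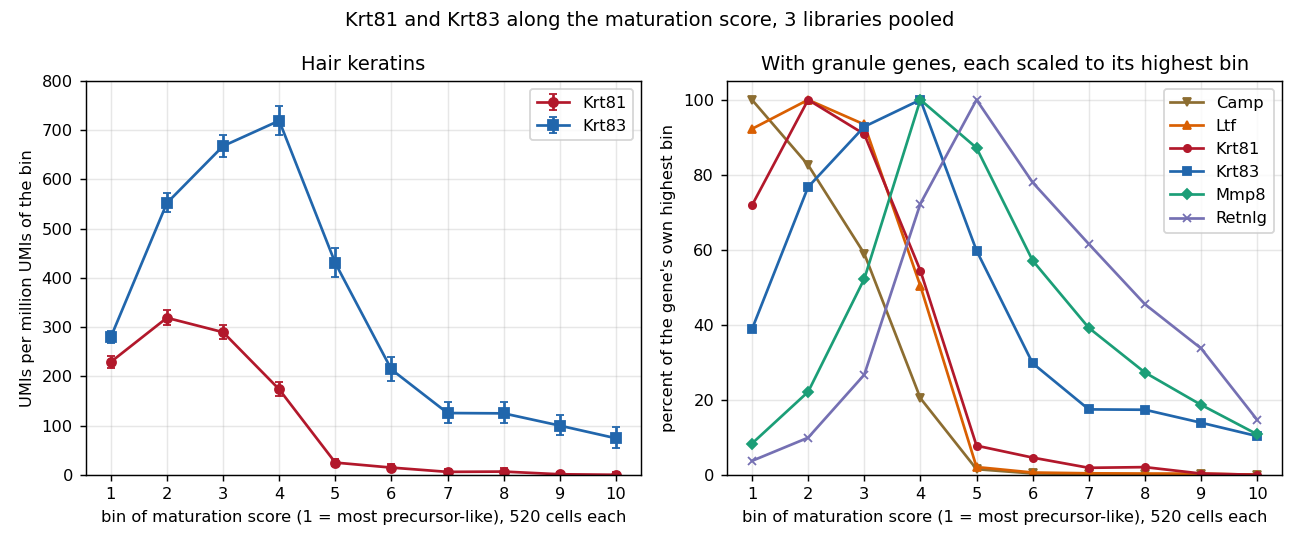
CPM of Krt81 and Krt83 along 10 bins of a maturation score with exact Poisson 95% intervals (left), and the same genes with Camp, Ltf, Mmp8 and Retnlg as a percent of each gene's own highest bin (right), 3 libraries pooled. Krt81 is highest in bin 2 with Ltf and Krt83 in bin 4 with Mmp8. Camp and Ltf are part of the score, so their early peaks follow from how the bins were made.

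Krt81 was spread unevenly over cells that shared a cluster. Of the 820 late precursors of 1d, 525 had no Krt81 UMI, 79 had 10 or more and 1 had 79, and the 82 cells with the most held 69.7% of the Krt81 UMIs. For Krt83 in the same cells, 142 had none and 192 had 10 or more, with a median of 5 and a maximum of 54 UMIs, and the top 82 cells held 33.1%. In the 302 late precursors of Ctrl, 157 cells had no Krt81 and 71 had no Krt83. Of the 195 in 7d, 151 had no Krt81 and 61 no Krt83. The median late precursor thus had no Krt81 UMI in any library, while the Krt83 median was 4 in Ctrl, 5 in 1d and 1 in 7d.

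This unevenness was set against genes of the same level, since a low count alone leaves many cells at 0. After each cell was thinned to 1000 UMIs, Krt81 was detected in 20.6% of the 816 late precursors of 1d that were deep enough. The 226 genes with a mean within 1.5-fold of it were detected in a median of 29.8%, and 5 of them in a smaller share. In early precursors of 1d the share was 13.4% against a median of 18.0% over 423 genes of like level, 31 of them lower. In 1d Krt83 lay near its peers, with 49.6% of late precursors against a median of 51.6% over 107 genes. In Ctrl the gap for Krt81 was small: 16.0% of late precursors against a median of 17.1%, with 182 of 476 genes lower. In the 42 early precursors of Ctrl Krt81 lay above its peers, at 7.14% against 4.76%, with 1058 of 1827 genes lower. In early precursors of 7d it was at 8.19% against 9.94%, with 70 of 824 genes lower. In late precursors of 7d it was at 10.99% against 13.1%, with 140 of 624 lower. Krt83 was also below its peers there, at 31.4% against 36.1%, with 40 of 200 lower. The gap for Krt81 was thus widest in 1d.

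**Figure D3:**
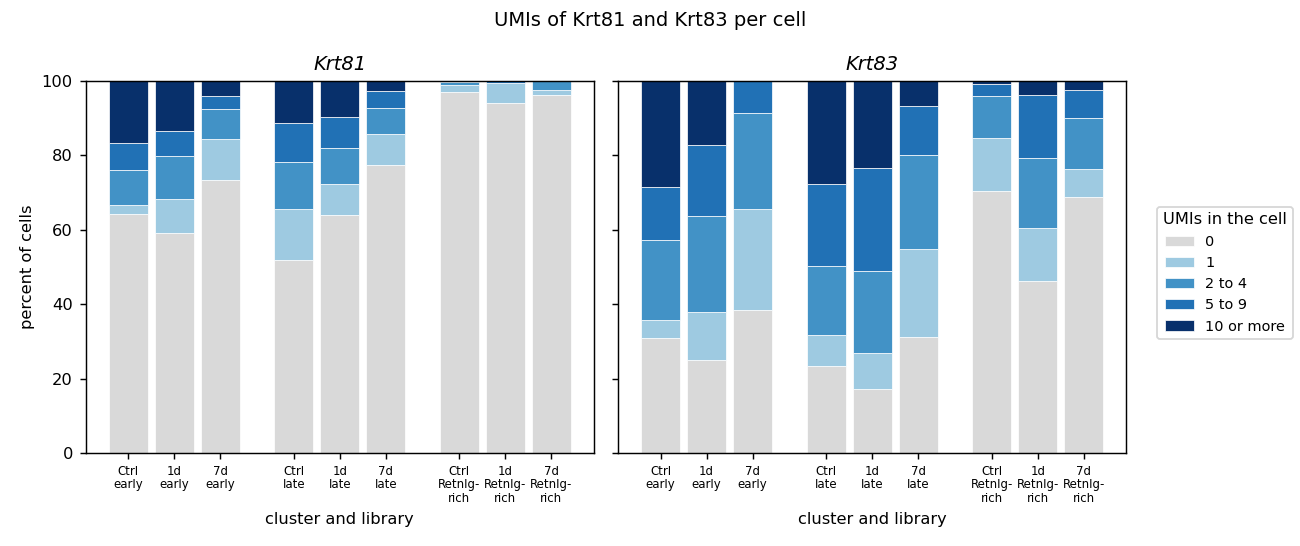
Share of cells with 0, 1, 2 to 4, 5 to 9 and 10 or more UMIs of Krt81 (left) and Krt83 (right) in early precursors, late precursors and Retnlg-rich neutrophils of each library, as stacked bars that start at 0 and sum to 100 percent. Cells without Krt81 are the majority in every bar, and in late precursors cells without Krt83 are 142 of 820 in 1d.

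Cells with Krt81 nearly always had Krt83, but not the reverse. Among late precursors 465 cells had both, 19 had only Krt81, 578 had only Krt83 and 255 had neither. Krt83 was thus found in 96.1% of the Krt81-positive and 69.4% of the Krt81-negative late precursors. Deeper cells show more of every gene, and after thinning to 1000 UMIs the shares were 62.7% and 40.9%. In late precursors of Ctrl, 1d and 7d the thinned shares were 57.4% against 37.0%, 64.9% against 45.7%, and 57.1% against 28.2%. In early precursors over all libraries they were 29.9% against 15.8%.

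Cycling cells were compared within a cluster, a cell being called cycling with UMIs of at least 2 of the 6 cycling genes. In late precursors Krt83 was lower in cycling than in other cells, with 581 against 643 CPM in Ctrl, 785 against 917 in 1d and 337 against 479 in 7d, the last from 6 cycling cells. Krt81 was 300.0 against 230.0 in Ctrl and 641 against 409 in 1d, a ratio of 1.30 (1.14 to 1.49) and 1.57 (1.38 to 1.78), and 148 against 166 in 7d. In early precursors of 1d and 7d Krt81 was lower in cycling cells, with 225 in the 354 cycling of 373 cells against 344 in the rest in 1d and 80.2 in the 154 cycling of 172 cells against 230.1 in 7d. Cycling late precursors were deeper than the others, with medians of 16687 and 6041 UMIs. Cycling cells were 28.1% of late precursors in Ctrl, 3.54% in 1d and 3.08% in 7d. Free RNA and depth both bear on such calls, and their part was not tested.

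Against Ctrl, both keratins were lower in the precursors of the 7d library. In early precursors Krt81 stood at 92.8 against 192 CPM, a ratio of 0.483 (interval 0.396 to 0.589), and Krt83 at 114 against 295, a ratio of 0.386 (0.326 to 0.457). Both lay past 2-fold lower, as did 7.04% of the 7087 genes with at least 20 UMIs. Of the 198 Krt81 UMIs in the 42 early precursors of Ctrl, 59 were in 1 cell. Without the cell highest for each gene in every cluster and library the ratios were 0.595 and 0.424, the first no longer past 2-fold. In late precursors the ratios were 0.627 (0.533 to 0.735) for Krt81 and 0.766 (0.695 to 0.843) for Krt83, and neither was past 2-fold, whereas 17.1% of 7152 genes were. At resolution 2, which draws the line between early and late precursors elsewhere, the late precursor ratio was 0.183 (0.106 to 0.296) for Krt81, past 2-fold lower, and 0.911 (0.785 to 1.05) for Krt83. The early precursor ratios were then 0.612 and 0.669, and the early Krt81 ratio was 0.312 with no cell filter. Over both clusters the ratios were 0.470 (0.418 to 0.527) and 0.424 (0.390 to 0.459), both past 2-fold lower as were 10.7% of 8584 genes. Early precursors were 172 of the 7d and 42 of the Ctrl precursor cells, and with early and late precursors weighted equally the ratios were 0.566 and 0.643.

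The granule genes of the same cells did not show the same values. Ltf in late precursors was 1.45 times its Ctrl level in 7d (1.42 to 1.48), Mmp8 1.61 times, Ly6g 1.70 times and Camp 1.35 times, and Cd177, a neutrophil surface protein, 1.33 times. In early precursors of 7d, Ltf was at 1.18 times its Ctrl level and Camp at 1.30 times. Lcn2, which codes for the iron-withholding lipocalin 2, was at 0.732 times and Ly6g, a neutrophil surface antigen, at 0.578 times. Over both precursor clusters of 7d Camp was at 1.68, Cd177 at 1.20 and Ltf at 1.17 times its Ctrl level. Lcn2 was at 0.934, Ly6g at 0.856 and Mmp8 at 0.702 times. Median depth was lower in the irradiated libraries, with 21621, 15854 and 12716 UMIs per early precursor and 9520.5, 6240 and 5312 per late precursor in Ctrl, 1d and 7d. With every cell thinned to 1000 UMIs, where deep cells no longer weigh more, the 7d ratio over both precursor clusters was 0.691 for Krt81 and 0.652 for Krt83. In early precursors it turned to 1.64 (0.486 to 8.60) for Krt81 and was 0.842 (0.352 to 2.31) for Krt83, with 42 thinned cells of Ctrl. The library, its pool of mice and the irradiation cannot be told apart in this design.

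In the 1d library the late precursors held more of both keratins than in Ctrl, while the ratio in early precursors varied with the settings. In late precursors Krt81 stood at 427 against 263 CPM, a ratio of 1.62 (1.5 to 1.75), and Krt83 at 907 against 613, a ratio of 1.48 (1.41 to 1.56). In early precursors Krt81 was at a ratio of 1.19 (1.03 to 1.39) and Krt83 at 0.973 (0.862 to 1.10). The first of these was 0.941 with no cell filter and 1.55 without the highest cells. With finer clusters (Leiden resolution 2) the early precursor ratios were 1.66 (1.47 to 1.89) and 1.68 (1.52 to 1.86), and in cells thinned to 1000 UMIs they were 3.04 (1.004 to 15.05) and 1.48 (0.690 to 3.78). A difference between early and late precursors is therefore not steady across settings. In late precursors resolution 2 gave 1.27 and 1.60. For the genes beside them in late precursors, the ratio was 1.51 for Camp, 1.14 for Ltf, 1.09 for Mmp8 and 0.846 for Ly6g.

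Krt83 was also higher in the neutrophils of 1d than in those of Ctrl. Retnlg-rich neutrophils had 651 against 259 CPM, a ratio of 2.52 (2.29 to 2.76), past 2-fold higher as were 3.56% of 6215 genes. In Acod1-rich neutrophils the ratio was 1.92 (1.31 to 2.74). Over both clusters it was 2.68, with a range of 2.05 to 2.98 under the other settings. Krt83 was detected in 53.7% of the Retnlg-rich neutrophils of 1d and 29.6% of those of Ctrl, or 33.2% and 15.5% after thinning to 1000 UMIs. Secondary granule genes differed in these 1d cells: Camp was at 2.18 times and Ngp at 2.24 times its Ctrl level, but Ltf at 1.02 times (0.899 to 1.16). Mmp8, of the young neutrophil list, was at 1.41 times. Within the fifth to ninth maturation bins, which held 125 to 36 cells in 1d, Krt83 in 1d was at 704, 357, 130, 218 and 242 CPM against 357.5, 196, 128, 113 and 90.3 in Ctrl.

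Krt83 in the neutrophils of 7d gave no steady direction. It was at 374 CPM in Retnlg-rich neutrophils against 259 in Ctrl, a ratio of 1.44 (1.17 to 1.77), and at 41.6 against 89.3 in Acod1-rich neutrophils, a ratio of 0.466 (0.149 to 1.11). Over both clusters the ratio was 1.29, and it lay below 1 under 9 of 11 other settings, at 0.449 to 0.946. Krt81 was too scarce in neutrophils to compare, with 6 UMIs in 7d and 28 in 1d.

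In granulocyte progenitors both keratins were lower in 7d than in Ctrl, from 32 Ctrl cells. Krt81 was at 1.88 against 6.26 CPM from 14 and 7 UMIs, a ratio of 0.301 (0.114 to 0.881), and Krt83 at 12 against 38.4, a ratio of 0.312 (0.214 to 0.459). Both were past 2-fold lower, as were 3.93% of 9499 genes. Of the 43 Krt83 UMIs of Ctrl progenitors 8 were in 1 cell. In 1d the ratio for Krt83 was 0.593 (0.415 to 0.860). After thinning to 1000 UMIs, 0.476% of the progenitors of 1d and 0.576% of those of 7d had a Krt81 UMI, and none of 31 in Ctrl, which allows up to 9.68%. Camp, a gene that leads the next stage, was at 1.26 times its Ctrl level in progenitors of 1d and 0.716 times in those of 7d.

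**Figure D4:**
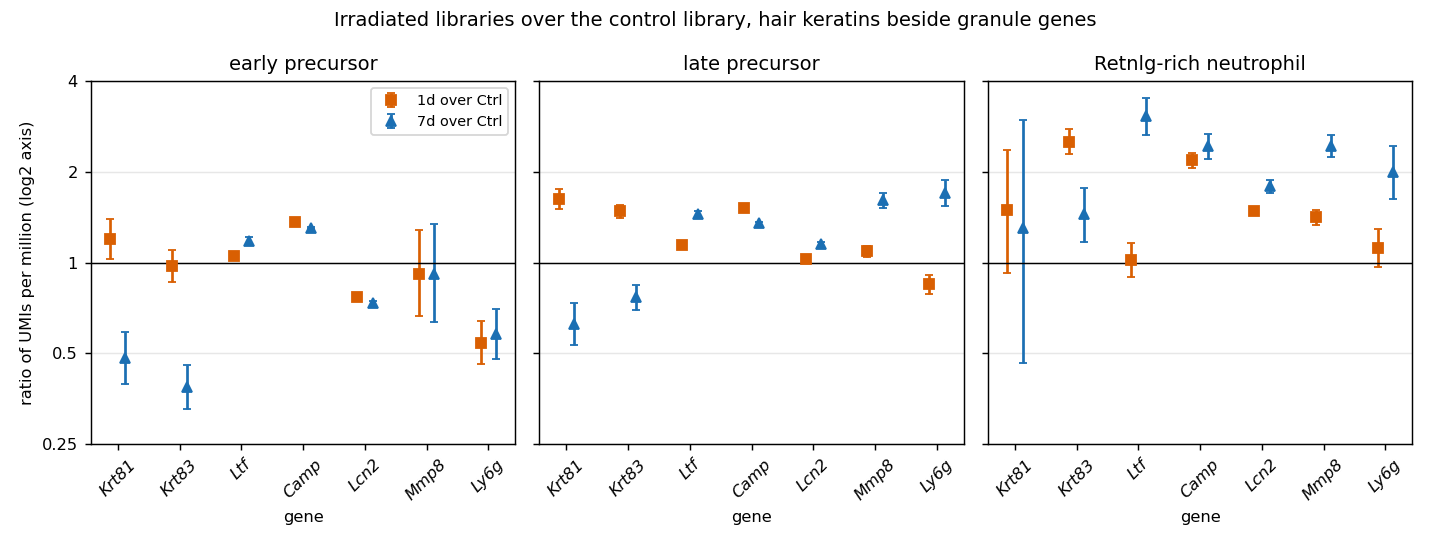
Ratio of CPM in 1d and 7d over Ctrl for Krt81, Krt83 and 5 neutrophil genes in early precursors, late precursors and Retnlg-rich neutrophils, on a log2 axis with exact 95% intervals for counting error. Both keratins lie below 1 in 7d precursors while Ltf and Camp lie above 1, and Krt83 is at 2.52 in 1d Retnlg-rich neutrophils. Lcn2 (0.732) and Ly6g (0.578) also lie below 1 in 7d early precursors but above 1 in 7d late precursors.

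Other genes of the hair shaft were absent from these cells or scarce. Of the 6 type II hair keratins in the files, 3 had a UMI in granulocytes, the third being Krt86 with 124 UMIs in 98 cells, from 0 CPM in progenitors to 6.39 in late precursors. No type I hair keratin (0 of 9) and no keratin-associated protein (0 of 57) had a single UMI in granulocytes, which allows each of them up to 0.0715 CPM over these cells. The usual filament partners of Krt81 and Krt83 were thus not detectable at this depth. Of 20 epithelial keratins, 5 had at least 20 UMIs in granulocytes. Their levels were 1.93 CPM for Krt18, 1.19 for Krt14, 0.977 for Krt8, and 0.810 for both Krt10 and Krt80, against 132 for Krt81 and 302 for Krt83 over the same cells. Vim, the filament protein of mesenchymal and blood cells, was at 668 there and Lmnb1, a nuclear lamin, at 932. Plec and Dsp, from the same gene list as these, were at 124 and 1.14. Jup, the junction protein plakoglobin, was at 5.89 and Padi3, an enzyme that modifies hair shaft proteins, at 1.19, the latter with 50 of its 65 UMIs in granulocytes.

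The epithelial cluster, where keratin filaments are the defining product, had almost none of either gene. Its 85 cells held 13908 UMIs of Krt14 and 6492 of Krt5 at a median depth of 12622 UMIs per cell. They held 0 UMIs of Krt81 and 4 of Krt83 (3.11 CPM), 3 of these in 1 cell. The 0 allows up to 2.33 CPM, taking 3 counts as the limit.

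The genes most like each keratin were ranked over 66 profiles, each a cluster in a library with at least 30 cells, 15 of them granulocytes, by Pearson's r of log2(CPM + 10) among 11482 genes. For Krt81 these were Itgb2l (0.881), a neutrophil integrin chain, Ltf (0.874), Orm1 (0.858), Ldhc (0.855), Olfm4 (0.852), a secondary granule protein, Adtrp, Ppp1r42, Cd177, Abca13 and Ngp (0.819). For Krt83 they were Ly6g (0.895), Slc27a4 (0.881), Lcn2 (0.870), Ankrd22 (0.865), Padi4 (0.864), the histone-citrullinating enzyme of neutrophils, Chil1, Mrgpra2a, Mrgpra2b, Olfm4 and Fmo5 (0.851). Olfm4 was the 1 gene on both lists. The 2 keratins had an r of 0.801 with each other, and 12 genes were closer to Krt81 than Krt83 was. The profiles share 3 libraries and the depth of each cluster, and these values only describe where the genes were detected.

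Outside granulocytes, Krt81 was close to 0 and Krt83 was not. Krt81 had 162 UMIs there in 49 cells, and a few cells held most of them. A single cell of the erythroid cluster 27 in 1d held 33 of that cluster's 35 UMIs, and the macrophage cluster had 67 UMIs in 7 cells of which 1 had 28. Krt83 had 667 UMIs in 362 cells. Basophils and mast cells, the other granulocytes named here (228 cells), had 1 UMI of Krt81 and 16 of Krt83, 9 of the latter in 1 cell. In B cells, which should lack both genes, Krt81 was at 0.88 and Krt83 at 1.5 CPM, and 0.34% of 3520 B cells had a Krt83 UMI at a median depth of 2038.5 UMIs, a measure of the free RNA in the suspension.

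T cells and NK cells were above that background for Krt83 but not for Krt81. Krt83 was in 2.97% of 3366 T cells (2.42% to 3.60%) and 4.39% of 1708 NK cells (3.47% to 5.47%), at median depths of 3298.5 and 2683.5 UMIs. After thinning to 1000 UMIs these shares were 0.99% and 1.84%, against 0.15% of B cells. The T cells of Ctrl, 1d and 7d had 47, 20 and 79 Krt83 UMIs and the NK cells 42, 11 and 57, so all libraries contributed. Krt81 had 2 UMIs in T cells and 2 in NK cells. Per 1000 UMIs of Camp, precursors held 12.1 UMIs of Krt83, B cells 13.2, T cells 158, NK cells 368 and neutrophils 379.6. The part of free RNA in the T and NK cell values was not tested.

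T cell clusters were unlike each other in Krt83. Cluster 4, with Ctla4, Icos, Rora and Cxcr6 among its leading genes, had a Krt83 UMI in 6.37% of 518 cells and 42.3 CPM, and no UMI of Krt81, which allows up to 1.89 CPM. Cluster 3, led by Cd8b1, Lef1 and Ccr7, genes of naive T cells, had one in 0.58% of 1207 cells and 1.92 CPM. Cluster 2, led by Ikzf2 and Ccl5, lay between them with 3.66% of 1641 cells and 11.4 CPM. Even the first of these levels was below the 95.1 CPM of Acod1-rich neutrophils, all over the pooled libraries. In 7d alone Krt83 was in 8.15% of 184 cells of cluster 4 and 2.41% of 83 Acod1-rich neutrophils.

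**Figure D5:**
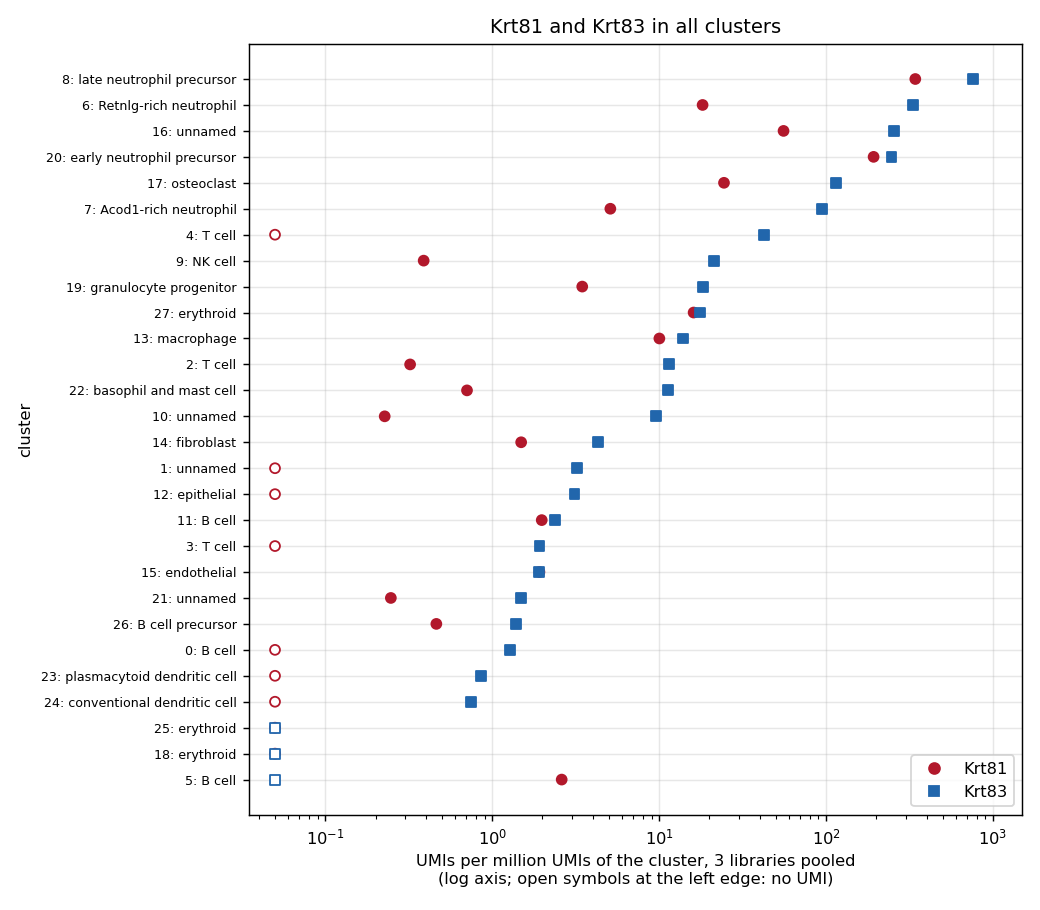
CPM of Krt81 and Krt83 in all 28 clusters, 3 libraries pooled, on a log axis, with clusters ordered by Krt83 and open symbols at the left edge for no UMI. Late precursors lead for both genes, and cluster 4 of T cells and cluster 9 of NK cells show Krt83 with little or no Krt81.

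Some clusters held neutrophil transcripts beside those of another cell type. Cluster 16 (56 cells, led by haemoglobin genes and with young neutrophil markers as its second list) had 78 UMIs of Krt83 and 17 of Krt81. Cluster 17, which came only from Ctrl and was named osteoclast by 3 markers, had Krt83 in 24.8% and Krt81 in 6.64% of its 226 cells. Per 1000 UMIs of Camp it held 23.6 of Krt83 and 5.05 of Krt81, against 19.4 and 8.88 in the precursors of Ctrl, and no cell in it had more than 1 Krt81 UMI. Unnamed cluster 10 had 42 Krt83 UMIs, 40 of them in Ctrl. The part of free RNA or doublets in these clusters was not tested.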

How the data were processed

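The deposited values were counts of UMIs per gene and cell, per the file headers, which name Cell Ranger 6.1.1. CASAVA 1.8, Cell Ranger and Seurat, with build mm10, are listed in the submitters' processing notes. The annotation release is not given in the sources used here, nor is the method of cell calling. Krt81, Krt83, the marker and gene lists and the questions were chosen with earlier results of these data known.

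The cell filter asked for 500 UMIs, 250 genes and no more than 15% of UMIs from mitochondria, which removed 2435, 916 and 1247 barcodes of Ctrl, 1d and 7d. Most of these (2349, 756 and 1094) had over 50% haemoglobin UMIs. Scrublet in scanpy 1.11.5 called doublets per library (257 in Ctrl). Where its threshold called under 0.5% of cells, those with the highest scores were removed at 0.8% per 1000 barcodes (248 in 1d, 403 in 7d). The top 2000 variable genes, without Krt81 and Krt83, were reduced to 30 principal components, with Leiden clustering (resolution 1) on 15 neighbours, with no correction between libraries. A cluster took the name of the list with the highest mean log2 against all other cells if this reached 1.5 and at least 3 markers passed a log2 of 1 and detection in 10% of its cells. Both neutrophil clusters are called by a leading gene. Early precursors had the neutrophil precursor list as their highest. Late precursors had a young or mature neutrophil list as their highest, with the precursor list also at 1.5 or more.

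UMIs were summed per cluster and library and divided by the cluster's total UMIs. Levels carry exact Poisson, shares exact binomial (Clopper-Pearson) and ratios exact conditional 95% intervals, all for counting error only. The intervals of the ratios were checked on simulated Poisson sums, the model they assume. That check leaves out the uneven spread of UMIs over cells and mice, so it says nothing about that spread. UMIs are already collapsed for copies made in amplification. With 1 library a group no test was made. Total UMIs in the deposited barcodes were 41048084, 46119700 and 49998293. The background share counts genes with at least 20 UMIs over the samples compared. Thinning drew 1000 UMIs from each cell and left out shallower cells. Genes were named by these rules: the members, the stage markers, and the 10 genes most correlated with each member. Up to 10 other keratin or hair shaft list genes with the most UMIs in granulocytes were also named, with Krt10 and Krt80 beside them. Sequences came from the GENCODE transcripts, and positions from the GENCODE annotation of mm10. Alternatives were other cell filters, doublets kept, other resolutions, both genes allowed in clustering, thinning, subtraction of 5% free RNA, TMM factors (edgeR 4.0.16), leaving out the cells highest for each gene, equal weights for early and late precursors, and a marker gate: at least 400 secondary granule UMIs per 10000 for precursors and 100 for the other stages.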

Additional observations from a re-analysis of the deposited data

Results flagged for a closer look

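Barcodes left out by the cell filter held a little of both genes: 10 UMIs of Krt83 in Ctrl, and 4 of Krt81 and 12 of Krt83 in 1d. This is 2.67 CPM of Krt83 in the left-out barcodes of Ctrl and 4.64 in those of 1d, against 117 and 201 in kept cells.

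The ratio of Krt83 between libraries ran in opposite directions at different stages, each with an interval clear of 1. In 1d over Ctrl it was 2.52 in Retnlg-rich neutrophils and 0.593 in granulocyte progenitors. In 7d over Ctrl it was 1.44 in Retnlg-rich neutrophils and 0.312 in granulocyte progenitors. Over both neutrophil clusters the 7d ratio was 1.29, with a range of 0.449 to 1.32 under the other settings. The direction in 7d neutrophils was thus not steady. The difference between the stages was not tested, since each library is a single pool. The progenitors of Ctrl were 32 cells with 43 Krt83 UMIs, 8 of them in 1 cell. The Retnlg-rich neutrophils of 7d were 80 cells, 1 of which held 17.3% of their Krt83 UMIs.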

How the results depend on the processing

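Depth limits what the counts can show most for Krt81 in neutrophils and progenitors, for all values of 7d neutrophils, and for both genes in the 42 early precursors of Ctrl once thinned. The shares and ratios that answer a comparison had 133 values under 12 alternatives. Of these, 79 moved by less than their counting interval, 53 moved by more and 1 turned. A ratio counted as turned only where its reported interval was clear of 1 and the alternative lay on the other side. Krt83 in precursors over neutrophils of 1d and 7d could therefore not count, though each crossed 1 under some settings given below. Over early and late precursors summed, no direction of Krt81 turned (in early precursors alone it did, as given last): its ratio was between 1.17 and 1.82 in 1d and between 0.352 and 0.691 in 7d, and that of Krt83 was between 0.340 and 0.652 in 7d. The causes of the moves were not tested. No paired analysis was possible because each group had 1 library.

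Of all Krt81 UMIs the share in granulocytes was 97.9% with the stricter filter, 95.9% with doublets kept, 99.8% with 5% free RNA subtracted and 97.8% with the marker gate. For Krt83 it was 95.8% with the stricter filter, 94.3% with no filter, 93.7% with doublets kept, 95.6% at resolution 0.5, 95.5% at resolution 2, 93.1% after thinning, 97.8% with free RNA subtracted and 93.0% with the gate.

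For precursors over neutrophils, Krt81 in Ctrl and 1d was 4.28 and 4.85 with the stricter filter and 32.8 and 30.4 after thinning. It was 27.9 in 1d and 27.4 in 7d with doublets kept, 27.2 in 1d with both genes allowed in clustering and 13.5 in Ctrl with TMM factors. After thinning it has no value in 7d, where neutrophils kept no Krt81 UMI. Krt83 in Ctrl and 1d was 1.60 and 0.879 with the stricter filter and 1.86 and 0.906 with TMM factors. Krt83 in Ctrl, 1d and 7d was 3.32, 1.44 and 2.43 after thinning and 2.91, 1.42 and 2.20 with the gate. Krt83 in 7d was also 1.29 at resolution 0.5, 1.26 at resolution 2 and 1.29 with both genes allowed, and with doublets kept it was 1.23 in 1d and 1.74 in 7d.

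For 1d over Ctrl in precursors, Krt81 was 1.17 with no filter, 1.82 after thinning and 1.44 with early and late precursors weighted equally, an alternative chosen after seeing the data, as was leaving out the highest cells, which turned none of these. Krt83 turned to 0.986 with no filter and was 1.19 with the stricter filter, 1.29 after thinning, 1.01 with the gate and 1.31 with equal weights. For 7d over Ctrl, Krt81 was 0.352 with no filter, 0.691 after thinning, 0.411 with TMM factors, 0.369 with the gate and 0.566 with equal weights. Krt83 was 0.469 with the stricter filter, 0.346 with no filter, 0.652 after thinning, 0.370 with TMM factors, 0.340 with the gate and 0.643 with equal weights.

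Among the 304 values of single clusters and levels, 13 turned. Krt83 in neutrophils of 7d over Ctrl was 0.946 with the stricter filter, 0.928 with no filter, 0.660 with doublets kept, 0.916 at resolution 0.5, 0.915 at resolution 2, 0.919 with both genes allowed, 0.892 after thinning, 0.896 with TMM factors and 0.449 with the gate. Krt81 in neutrophils of 1d over Ctrl was 0.949 with both genes allowed and 0.852 with doublets kept. Krt81 in early precursors was 0.941 in 1d with no filter and 1.64 in 7d after thinning. At resolution 2 Krt81 in late precursors of 7d was 0.183, and in early precursors of 1d Krt81 was 1.66 and Krt83 1.68.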

Other observations

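Krt83 in lymphocytes went with Cxcr6, which codes for a chemokine receptor of tissue-resident lymphocytes, and with Rora, a transcription factor of innate-like lymphocytes. Both genes were singled out after their values were seen. Cxcr6 was detected in 41.0% of the 100 T cells with a Krt83 UMI and 11.6% of the 3266 others, and in 21.3% of the 75 NK cells with one and 1.84% of the 1633 others. Rora was detected in 68.0% against 33.2% of T cells and in 73.3% against 26.9% of NK cells. The cells with Krt83 were deeper, with medians of 3593 against 3289.5 UMIs in T cells and 3326 against 2667 in NK cells. In T cell cluster 4 the medians were 4054 against 2426, and Cxcr6 was in 72.7% of 33 cells against 17.3%. In cluster 2 they were 3542.5 against 3593, with Cxcr6 in 28.3% of 60 cells against 15.8%. In cluster 3 Cxcr6 was in 0 of 7 cells with Krt83. The part of depth and of cluster in these shares was not tested. Cd3e, a T cell receptor chain, was at 53.0% against 52.9% of T cells, and the granule gene Camp at 17.0% against 13.8%.

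Seen from the other side, 16 of 175 Cxcr6-positive T cells of Ctrl, 6 of 30 in 1d and 19 of 216 in 7d had a Krt83 UMI. Among the other T cells of these libraries, 18 of 1140, 4 of 138 and 37 of 1667 had one. Of the 9 T cells with at least 3 Krt83 UMIs, 7 had Cxcr6 and none had Krt81, and of the 10 such NK cells 4 had Cxcr6 and none had Krt81. Eomes, a regulator of NK cells and memory T cells, went the other way, at 46.7% of NK cells with Krt83 against 78.1% of the others.

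Genes that regulate granulocyte development were set beside the keratins by stage. Cebpe, needed for secondary granules, was at 296 CPM in progenitors, 310 in early precursors, 120 in late precursors and 11.2 in Retnlg-rich neutrophils. Its level was thus already high in progenitors, where Krt81 was at 3.46 and Krt83 at 18.2. Cebpb was at 517, 737, 1522 and 4024 in the same clusters.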
